A study of Mus musculus with 6 samples.

Results

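The Hippo-YAP genes described here are 10 genes of the Hippo growth-control pathway and its read-out: the kinases Lats1 and Lats2, the coactivators Yap1 and Wwtr1 (which encodes TAZ), the DNA-binding factor Tead1, the antagonist Vgll4, the scaffold gene Amotl2, and the target genes Ctgf, Cyr61 and Ankrd1. Ctgf and Cyr61 carry their current symbols Ccn2 and Ccn1 in the array annotation and are called so below. The members were chosen by name, with earlier results of these data known. All 10 of 10 were measured, out of 19938 genes with a transcript cluster of their own. All 10 passed the filter on dim genes that left 14953 genes for testing. A gene's value is that of its single-gene cluster with the highest mean over all arrays.

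C57BL/6J mice had been given ETX for 1 week (3 hearts, replicates 6, 7 and 10) or the vehicle, phosphate-buffered saline or PBS, for the same time (3 hearts, replicates 3, 9 and 12), and their hearts were taken for RNA on postnatal day 14. The labels do not spell out ETX and give no sex, dose or litter. Each heart was hybridised to 1 Affymetrix whole-transcript array, and the number of arrays limits the precision. Values are log2 signals, so a difference of 1 is a 2-fold change; means are given ± SD of 3 hearts.

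In the Hippo pathway a kinase cassette, MST1 and MST2 with SAV1 followed by LATS1 and LATS2 with MOB1, phosphorylates YAP and TAZ and keeps them out of the nucleus. Unphosphorylated YAP and TAZ bind TEAD factors on DNA and switch on genes such as Ccn1, Ccn2 and Ankrd1. In the heart YAP supports the growth of foetal and newborn cardiomyocytes, and the pathway limits that growth as the myocytes mature after birth. The activity of YAP and TAZ is set largely by phosphorylation and location, which RNA levels do not measure.

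With limma and an adjusted p threshold of 0.05, a share of 3.56% of the 14953 genes was called: 1.14% were higher with ETX and 2.43% were lower. The lower share of the called genes was 68.1% as deposited, 78.6% with each array centred on its median and 58.3% after a further quantile normalization. The 3 ETX and 3 PBS hearts did not overlap in 27.7% of genes, with ETX lower in 16.1% and higher in 11.6%; for a single gene the smallest p an exact permutation test of 3 against 3 can give is 0.1. Cardiomyocyte markers were bright in every heart, with a mean log2 level of their 8 genes between 12.10 and 12.26. Lung transcripts stood out in PBS replicates 3 and 9, where the mean of the lung markers was 6.51 and 7.83 against 3.72 to 3.82 in the other hearts. Atrial transcripts were high in PBS replicate 3 and ETX replicates 6 and 7 (7.52 to 8.26, against 5.58 to 6.13). Myl4, Myl7, Sln and Mybphl followed that split. Nppa was high in ETX replicate 10 as well (11.89), and Bmp10 in PBS replicate 3 alone (7.71). Xist, read as a sign of a female animal, was high in PBS replicate 3 and ETX replicates 6 and 10.

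Lats2 was the 1 member that passed the test, just under the threshold (limma adjusted p = 0.0499). It was lower in ETX by 0.28 on the log2 scale or 1.21-fold. The call held in 6 of the 19 alternatives and in 0 of the 6 fits with a heart left out. Ankrd1, Ccn1 and Vgll4 had larger or similar mean differences with a wider spread between hearts, and Yap1, Wwtr1 and Amotl2 differed by less than 0.1. The mean difference of each of the 10 members lay below 0, from -0.42 for Ankrd1 to -0.03 for Amotl2, with a median of -0.19, where the median over all genes tested was -0.01 and 51.6% of them lay below 0. With a further quantile normalization the difference of Amotl2 was 0.0038, on the other side of 0. Without the PBS hearts with lung transcripts, which leaves PBS replicate 12 alone, Yap1 (0.01), Ccn1 (0.02) and Ccn2 (0.07) also lay above 0. Of the 10 members 1 passed the test and 0 rose, where 3.56% of all genes tested were called. With 1 call the count is no result about the members. In 3 of the 10, Tead1, Lats1 and Lats2, every ETX heart lay below every PBS heart. Over all genes 16.1% had ETX lower without overlap and 27.7% had no overlap in either direction. The members were chosen with earlier results of these data known, so this count and that of differences below 0 are a description only. All 8 cardiomyocyte, all 8 endothelial and all 8 macrophage markers also lay below 0, with medians of -0.11, -0.30 and -0.54. All 6 epicardial, 5 of 6 atrial and 2 of 8 fibroblast markers lay above 0. The part of these cell types in the members' differences was not tested. In a bulk sample fewer cells of a type and less RNA per cell cannot be told apart.

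**Figure D1:**
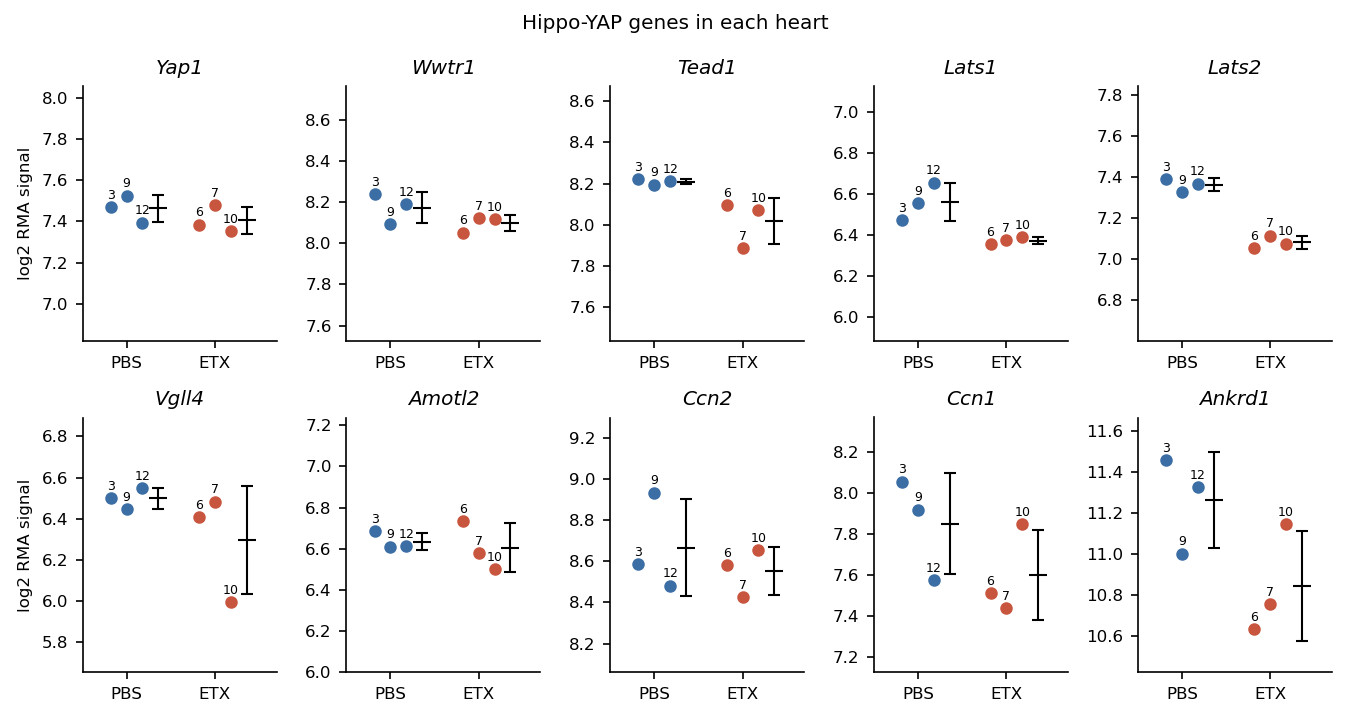
Log2 signal of the 10 Hippo-YAP genes in each heart (y axis, a window of equal height in every panel), with PBS hearts in blue and ETX hearts in red and the replicate number above each point; the bar is the mean with its SD (n = 3). Tead1, Lats1 and Lats2 are the panels in which the groups do not overlap, and ETX replicate 10 stands apart in Vgll4, Ccn1 and Ankrd1.

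Lats1 and Lats2 encode the kinases that phosphorylate YAP and TAZ directly; Lats2 is also a target gene of YAP, which makes it part of a feedback loop. Lats2 was at 7.39, 7.33 and 7.37 in PBS replicates 3, 9 and 12 and at 7.05, 7.11 and 7.08 in ETX replicates 6, 7 and 10. The hearts of each group lay close together, with an SD of 0.03 in PBS and 0.03 in ETX, and the groups were far apart relative to that. The difference was -0.28 (95% interval -0.42 to -0.14, limma adjusted p = 0.0499). The call sits at the threshold: with any 1 of the 6 hearts left out the difference stayed between -0.30 and -0.27, but the adjusted p rose to 0.0895 to 0.138. It was also lost without the PBS hearts with lung transcripts (-0.29, limma adjusted p = 0.214).

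Lats1 was at 6.47, 6.55 and 6.65 in PBS and at 6.35, 6.37 and 6.39 in ETX. The ETX hearts were nearly equal and all below PBS, whose hearts were more spread out. Its difference of -0.19 (95% interval -0.35 to -0.03) did not pass (limma adjusted p = 0.17).

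The 2 coactivators were close between the groups. Yap1 was at 7.47, 7.53 and 7.40 in PBS and at 7.38, 7.48 and 7.35 in ETX. The ranges overlapped, and the difference of -0.06 (95% interval -0.22 to 0.10) did not pass (limma adjusted p = 0.68). The interval does not show equal levels. Wwtr1 was at 8.24, 8.09 and 8.19 in PBS and at 8.05, 8.12 and 8.12 in ETX. Here, too, the groups overlapped, with a difference of -0.08 (95% interval -0.23 to 0.08, limma adjusted p = 0.559). Without the PBS hearts with lung transcripts the difference of Yap1 was 0.01, on the other side of 0.

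Tead1 encodes the TEAD factor that carries YAP and TAZ to DNA, and Vgll4 a protein that competes with YAP for TEAD. Tead1 was at 8.22, 8.19 and 8.21 in PBS and at 8.10, 7.89 and 8.07 in ETX. The PBS hearts were almost identical (SD 0.01), and the ETX hearts all lay lower with more spread (SD 0.11). The difference of -0.19 (95% interval -0.36 to -0.02) did not pass (limma adjusted p = 0.186). A second, dimmer Tead1 cluster gave 8.04, 8.03 and 7.95 in PBS and 7.80, 7.73 and 7.66 in ETX, again without overlap and with a difference of -0.28. With the mean of both clusters as the value of the gene the difference was -0.24 (limma adjusted p = 0.0931). The brighter cluster alone gave -0.13 without ETX replicate 7 (limma adjusted p = 0.434).

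Vgll4 was at 6.50, 6.45 and 6.55 in PBS and at 6.41, 6.48 and 6.00 in ETX. ETX replicates 6 and 7 lay beside the PBS hearts, and ETX replicate 10 alone was low. The difference of -0.20 (95% interval -0.49 to 0.08, limma adjusted p = 0.379) was -0.05 without ETX replicate 10.

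Amotl2 encodes an angiomotin-like protein that holds YAP at cell junctions, and its transcription is itself raised by YAP. It was at 6.68, 6.61 and 6.61 in PBS and at 6.74, 6.58 and 6.50 in ETX. ETX hearts lay on both sides of PBS, with a difference of -0.03 (95% interval -0.21 to 0.15, limma adjusted p = 0.864).

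Among the target genes, Ankrd1 encodes a cardiac ankyrin repeat protein of the sarcomere and nucleus, and Ccn1 and Ccn2 encode secreted matricellular proteins that act on neighbouring cells and matrix. TEAD factors recognise the letters GGAATG, or CATTCC on the opposite strand. RefSeq promoter windows (GRCm38.p6, 250 bases before to 50 after a start) were listed for 8 of the 10 members, not for Ccn2 and Tead1. Of these 8 genes 7 held the letters in at least 1 window, and Lats1 did not. By window 8 of 10 held them, with the 2 overlapping Wwtr1 windows counted apart. Of the 9 genes of the related lists that passed the test, 6 were listed. The letters were in 2 of these 6 genes and in 2 of their 7 windows. Over all 32851 windows of the same length 14.7% held them. The letters of AP-1 (TGANTCA) were in 0 of the 8 members and in 1 of the 6 called list genes, F3, against 7.81% of all windows. The CArG box bound by SRF was in 0 of the 8 members and 0 of the 6 called list genes, against 1.63%. The AP-1 letters can share their last CA with CATTCC, but with 0 AP-1 matches in the members none did. Both strands were searched, and a match describes letters, not binding. The windows below are shown because Ankrd1 has the largest mean difference of the members and the only window with 2 matches, which 1.36% of all windows had, while Lats2 is the member that passed the test and Ccn1 is the secreted target with the larger difference. Capitals mark the TEAD letters.

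Ankrd1, chr19:36119795-36120094, minus strand: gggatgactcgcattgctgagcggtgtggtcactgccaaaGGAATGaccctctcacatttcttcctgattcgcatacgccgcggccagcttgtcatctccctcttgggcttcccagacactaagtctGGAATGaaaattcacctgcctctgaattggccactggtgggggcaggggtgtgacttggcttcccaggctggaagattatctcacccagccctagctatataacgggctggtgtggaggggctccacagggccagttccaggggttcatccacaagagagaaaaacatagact

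Ccn1, chr3:145649936-145650235, minus strand: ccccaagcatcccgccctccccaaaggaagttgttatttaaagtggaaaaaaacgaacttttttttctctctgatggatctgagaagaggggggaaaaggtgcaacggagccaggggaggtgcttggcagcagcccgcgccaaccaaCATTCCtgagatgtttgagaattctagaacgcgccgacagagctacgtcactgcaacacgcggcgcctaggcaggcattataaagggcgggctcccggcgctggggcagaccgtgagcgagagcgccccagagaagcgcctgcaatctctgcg

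Lats2, chr14:57746074-57746373, minus strand: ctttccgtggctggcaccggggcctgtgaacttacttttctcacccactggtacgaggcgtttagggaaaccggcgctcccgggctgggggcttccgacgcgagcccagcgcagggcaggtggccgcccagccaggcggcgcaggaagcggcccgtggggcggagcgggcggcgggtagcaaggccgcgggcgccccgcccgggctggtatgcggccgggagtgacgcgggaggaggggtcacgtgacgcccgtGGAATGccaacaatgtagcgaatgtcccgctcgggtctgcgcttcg

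In these windows the first base of each match lies at -210 and -123 from the start in Ankrd1, at -103 in Ccn1 and at 5 in Lats2, where negative positions are before the start. A second Lats2 start, listed at another promoter, held 0 matches.

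Ankrd1 was at 11.45, 11.00 and 11.33 in PBS and at 10.63, 10.76 and 11.14 in ETX. ETX replicates 6 and 7 lay below every PBS heart, and ETX replicate 10 lay between PBS replicates 9 and 12. The difference of -0.42, a 1.33-fold lower mean (95% interval -0.77 to -0.06), did not pass (limma adjusted p = 0.171). Leaving out ETX replicate 10 gave -0.57 (limma adjusted p = 0.0985). Without the 3 hearts with high atrial transcripts, where ETX replicate 10 is the single ETX heart, it was -0.02.

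Ccn1 was at 8.06, 7.92 and 7.58 in PBS and at 7.51, 7.44 and 7.85 in ETX. The groups overlapped through PBS replicate 12, which was low, and ETX replicate 10, which was high. The difference of -0.25 (95% interval -0.59 to 0.08) did not pass (limma adjusted p = 0.361). The PBS hearts with lung transcripts, replicates 3 and 9, were those with more Ccn1; without them the difference was 0.02, on the other side of 0, and with 1 heart left out it ran from -0.15 (without PBS replicate 3) to -0.39 (without PBS replicate 12).

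Ccn2 was at 8.58, 8.93 and 8.48 in PBS and at 8.58, 8.43 and 8.65 in ETX. PBS replicate 9 was the highest heart, and the other two PBS hearts lay within the range of ETX. The difference of -0.11 (95% interval -0.39 to 0.17, limma adjusted p = 0.636) was 0.02 without PBS replicate 9 and 0.07 without both hearts with lung transcripts. The part of lung tissue in these differences was not tested.

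**Figure D2:**
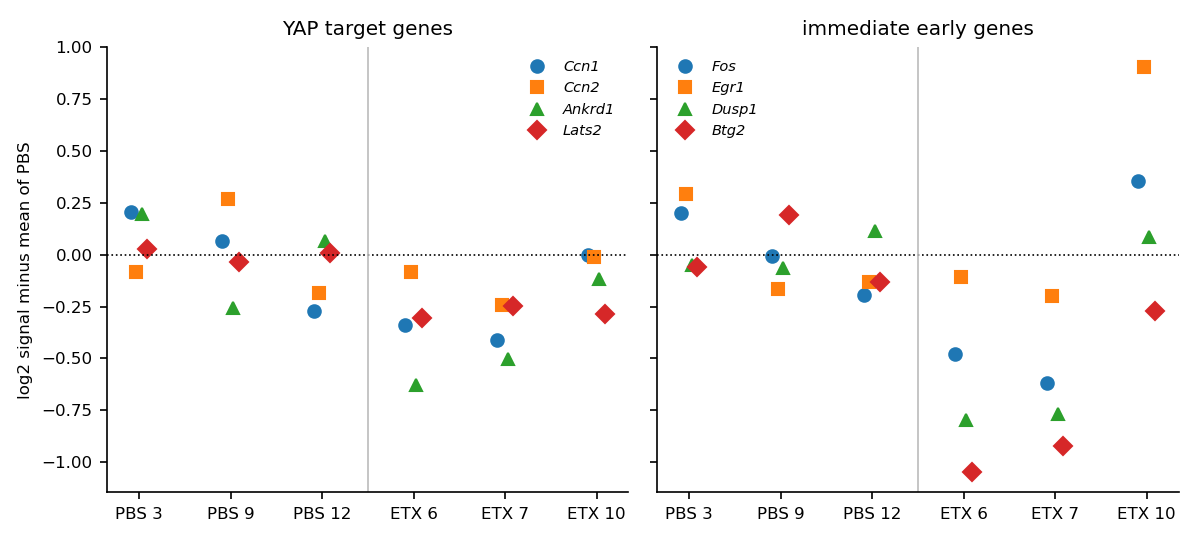
Log2 signal of each heart (x axis) minus the mean of the PBS hearts (y axis), with target genes on the left and immediate early genes on the right; each symbol is 1 gene and the grey line divides PBS from ETX. In ETX replicate 10 Ccn1, Ccn2, Ankrd1 and the 4 immediate early genes drawn (Fos, Egr1, Dusp1 and Btg2, chosen after their values were seen) lie above the other ETX hearts, whereas Lats2 does not; 4 of the 14 listed immediate early genes are not highest there.

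Ccn1 also belongs to the immediate early genes, which respond within minutes to stimuli, stretch and handling. Among those genes Dusp1, a phosphatase of MAP kinases, was at 9.84 and 9.86 in ETX replicates 6 and 7 and at 10.72 in ETX replicate 10, against 10.57 to 10.75 in PBS. Fos was at 4.63 and 4.49 in ETX replicates 6 and 7 and at 5.47 in ETX replicate 10, against 4.92 to 5.31 in PBS. Egr1 reached 7.78 in ETX replicate 10, the highest of the 6 hearts. These 3 genes were chosen after their values were seen, to stand beside Ccn1 and Ankrd1. Over the whole list, 10 of the 14 immediate early genes were highest in ETX replicate 10 among the ETX hearts, and Atf3, Ier3, Fosb and Junb were not. Of the 10 members 4 were highest there: Ccn1, Ccn2, Ankrd1 and, by a narrow margin (6.39 against 6.37 in ETX replicate 7), Lats1. The share of all genes highest in that heart was not counted, so neither count is a result about its list. Of the 14 immediate early genes listed, 2 fell, Nr4a1 (3.44-fold lower, limma adjusted p = 0.0348) and Jun (1.39-fold, 0.0496), and 0 rose. The list had a median of -0.44 and 10 members below 0. Over all genes tested 2.43% fell and 1.14% rose. Zfp36 (1.51-fold lower mean), Klf6 (1.41-fold), Btg2 (1.68-fold) and Atf3 (1.999-fold) did not pass (limma adjusted p 0.0729 to 0.0915). The log2 difference of Atf3 was -0.63 without PBS replicate 9 and -0.45 without both hearts with lung transcripts. The log2 difference of Nr4a1, -1.78 over all hearts, was -1.07 when the 3 atrial-high hearts were left out. Nr4a1 passed in 1 of the 6 fits with a heart left out, without ETX replicate 10 (0.02), and Jun in 1, without PBS replicate 12 (0.036). The part of immediate early activation in Ccn1 and Ankrd1 was not tested.

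The other known targets of YAP and TAZ formed a list of 17 genes, of which 16 passed the filter on dim genes and Foxf2 did not (2.88 ± 0.12 in PBS and 2.91 ± 0.05 in ETX). Of the 16, 4 fell, 0 rose and 12 did not pass, against the 2.43% lower and 1.14% higher of all genes tested. Their median difference was -0.22, with 13 of the 16 below 0. The list was chosen with earlier results of these data known, and its counts are a description only.

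Arhgef17, a guanine nucleotide exchange factor gene, was at 7.47, 7.54 and 7.57 in PBS and at 6.95, 7.04 and 7.05 in ETX. The groups were separated by several times their SD (0.05 in PBS and 0.06 in ETX). Arhgef17 fell 1.43-fold (95% interval of the log2 difference -0.66 to -0.36, limma adjusted p = 0.0115). It passed with any 1 heart left out, but only just without ETX replicate 7 (limma adjusted p = 0.0498). F3, tissue factor, which starts blood coagulation, was at 5.66, 5.68 and 5.55 in PBS and at 5.09, 5.05 and 5.20 in ETX. It fell 1.43-fold as well (limma adjusted p = 0.0146) and lost the call without PBS replicate 3, ETX replicate 6 or ETX replicate 7 (0.0543 to 0.0707).

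Ptpn14, a phosphatase that binds YAP and is also induced by it, was at 7.46, 7.41 and 7.53 in PBS and at 7.13, 6.94 and 7.11 in ETX. It fell 1.32-fold (limma adjusted p = 0.0347). Dock5, an activator of Rac, fell 1.27-fold, from 5.98 ± 0.07 to 5.63 ± 0.04 (limma adjusted p = 0.0379). Both lost the call with any 1 of the 6 hearts left out (limma adjusted p 0.0602 to 0.126). The targets with the next smallest p did not pass: Ccdc80, a matrix protein (8.69 ± 0.25 in PBS, 8.22 ± 0.03 in ETX, limma adjusted p = 0.0696), Gadd45a, a stress-response gene (-0.25, 0.0942), Igfbp3, which binds insulin-like growth factors (-0.35, 0.145), and the kinase gene Nuak2 (-0.25, 0.187). Ccdc80 passed in 1 of the 6 fits with a heart left out, without PBS replicate 9 (limma adjusted p = 0.0147).

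Many of these targets are also made by endothelial cells, fibroblasts and macrophages. Of 8 endothelial markers 3 fell and all 8 lay below 0, with a mean log2 level of 9.01 to 9.04 in the PBS hearts and 8.68 to 8.81 in ETX. Of 8 macrophage markers 5 fell, with a mean level of 7.42 to 7.71 in PBS and 6.84 to 6.94 in ETX. The 7.71 was in PBS replicate 9, a heart with lung transcripts. PBS replicate 3, the other such heart, was at 7.42, and PBS replicate 12 was at 7.45. The part of lung tissue in these levels was not tested. Of 8 fibroblast markers 1 fell, with mean levels that overlapped (9.51 to 9.67 in PBS, 9.41 to 9.61 in ETX). No marker in these 3 lists was called higher, and over all genes tested 2.43% fell. The 2 fibroblast markers above 0 were Postn (0.35, limma adjusted p = 0.155), higher in every ETX heart, and Tcf21 (0.10, 0.47). Of 8 smooth muscle and pericyte markers 0 passed in limma, with 2 at an unadjusted p under 0.05, both lower in ETX. Of 6 epicardial markers 0 passed in limma, but all 6 lay above 0 (median 0.22). The 3 epicardial markers at an unadjusted p under 0.05 were higher. Over all 14953 genes tested, 3279 had an unadjusted limma p under 0.05, 1954 of them lower in ETX and 1325 higher. The part of these cell types in the differences of the target genes was not tested.

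**Figure D3:**
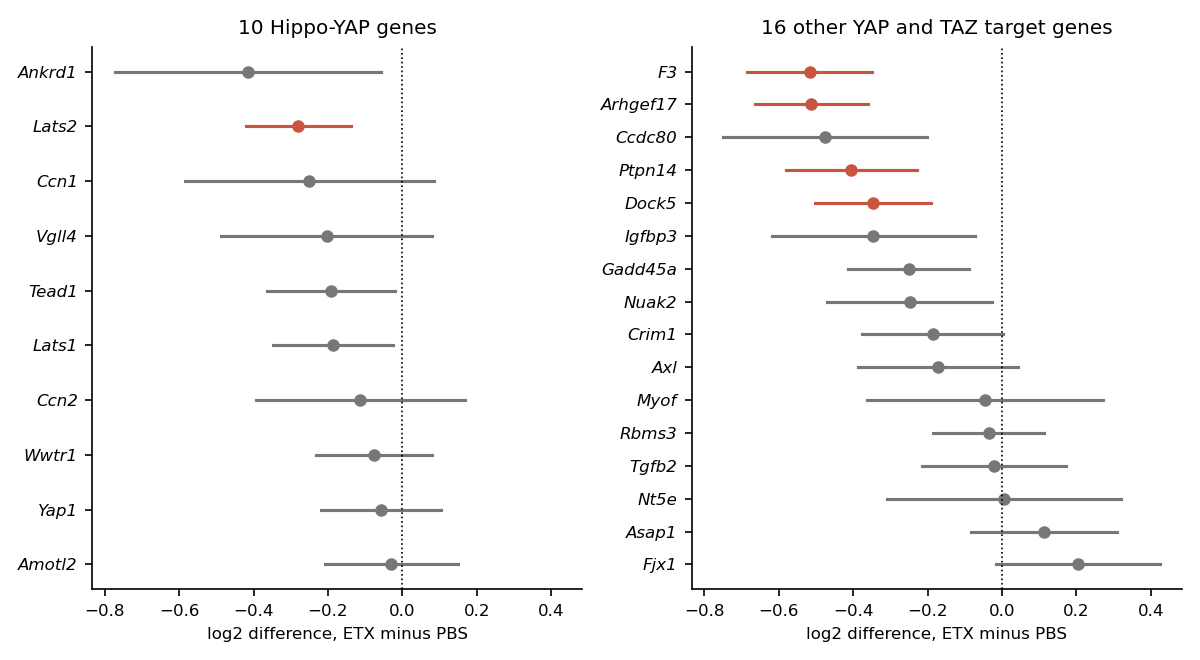
Log2 difference (x axis, ETX minus PBS) of the 10 Hippo-YAP genes on the left and of 16 other YAP and TAZ targets on the right, with 95% intervals from limma; red marks an adjusted p under 0.05. Lats2 on the left and F3, Arhgef17, Ptpn14 and Dock5 on the right are red, all below 0.

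Upstream of LATS, 23 of 28 listed genes of the kinase cassette and its regulators were measured: 1 fell, 0 rose and 22 did not pass, with a median difference of -0.12 and 16 below 0. The count is near the 3.56% called over all genes and is no result about the list. The gene that fell was Dchs1, a giant cadherin that serves as ligand of the cadherin FAT4. Dchs1 was at 6.34, 6.41 and 6.50 in PBS and at 6.09, 6.08 and 6.01 in ETX. The ETX hearts were all lower, and the 1.28-fold fall passed (limma adjusted p = 0.0375), but not with any 1 heart left out (0.0717 to 0.118). Its receptor Fat4 was at 6.70, 6.69 and 6.67 in PBS and at 6.20, 6.36 and 6.48 in ETX, without overlap and without passing (-0.34, limma adjusted p = 0.0667). The LATS-activating kinase gene Map4k4 differed by -0.24 (0.0814).

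The 2 MOB1 genes, whose proteins activate the LATS kinases, differed in opposite directions. Mob1a was at 6.86, 6.98 and 7.09 in PBS and at 6.66, 6.73 and 6.77 in ETX. Mob1b was at 7.28, 7.27 and 7.28 in PBS and at 7.41, 7.51 and 7.52 in ETX. Neither pair of groups overlapped, and neither gene passed (limma adjusted p = 0.117 and 0.116). The kinase gene Stk4, which encodes MST1, differed by 0.02 and its partner Sav1 by -0.06, both chosen for their place in the cassette and not by their p (limma adjusted p = 0.901 and 0.633). Nf2, the merlin gene and chosen likewise, differed by 0.07 (0.569), with every ETX heart above every PBS heart.

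Of 22 listed partners of YAP and TEAD, including junction proteins, 21 were measured: 2 fell, Tjp1 and Ptpn14, 0 rose and 19 did not pass, with a median of -0.06. Over all genes tested 3.56% were called, and 2 calls are no result about the list. Tjp1 encodes ZO-1, a junction scaffold that can bind YAP and TAZ. It was at 8.68, 8.66 and 8.62 in PBS and at 8.19, 8.23 and 8.33 in ETX. Tjp1 fell 1.32-fold (limma adjusted p = 0.0267), and in the fits with 1 heart left out it passed only without ETX replicate 10 (0.0428) and reached 0.102. Ctnna3, a catenin of the intercalated disc, differed by -0.27 (0.0742), and Amotl1, the angiomotin relative of Amotl2, by -0.21 (0.159).

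The vestigial-like cofactors of TEAD did not all lie on the same side. Vgll3 was at 5.61, 5.38 and 5.66 in PBS and at 5.98, 5.92 and 5.93 in ETX. All ETX hearts were higher, and the difference of 0.39 lay just outside the threshold (limma adjusted p = 0.0501). Vgll3 was called higher in 6 of the 19 alternatives, among them a further quantile normalization (0.0467) and array weights (0.045), and in 0 of the 6 limma fits with a heart left out (0.064 to 0.147). Vgll1, at a dim 3.65 ± 0.10 in PBS and 3.93 ± 0.12 in ETX, did not pass either (0.123). The other TEAD genes Tead2, Tead3 and Tead4, named as relatives of Tead1 and not by their p, differed by -0.01, -0.06 and -0.04 (limma adjusted p 0.727 to 0.972).

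**Figure D4:**
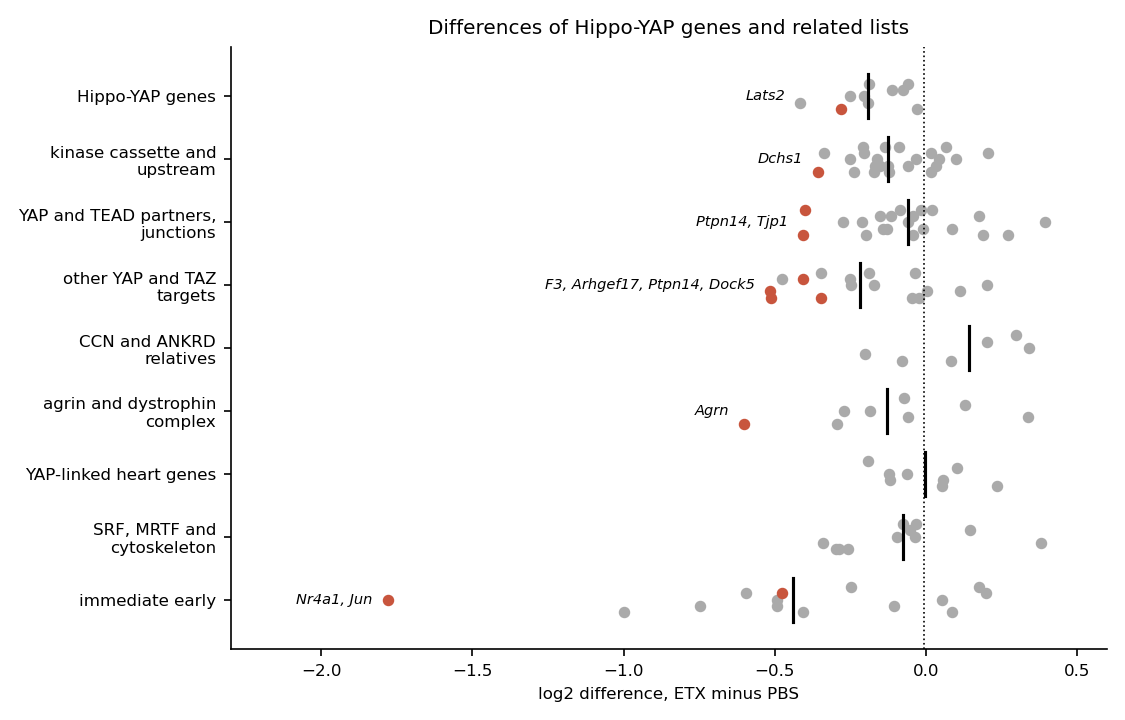
Log2 difference (x axis, ETX minus PBS) of each tested gene in the Hippo-YAP genes and 8 related lists (rows); red points and names are genes with a limma adjusted p under 0.05, black bars are medians and the dotted line is the median of all genes tested. Every red point lies below 0, and Ptpn14 stands in 2 rows.

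Agrin, a matrix proteoglycan, acts through dystroglycan on the dystrophin complex, which can hold YAP at the membrane of cardiomyocytes. Agrn was at 6.92, 6.86 and 6.95 in PBS and at 6.26, 6.29 and 6.38 in ETX. The groups were widely separated, and the 1.52-fold fall was the largest among the called genes of these lists outside the immediate early genes (95% interval of the log2 difference -0.75 to -0.45, limma adjusted p = 0.00714). It passed with any 1 heart left out (up to 0.0369). Of the 8 measured genes of this list Agrn was the 1 that fell, and 0 rose. Over all genes tested 3.56% were called, and 1 call is no result about the list. The dystrophin homologue Utrn (-0.27, limma adjusted p = 0.07), the sarcoglycan Sgcd (-0.29, 0.0719), Dmd itself (-0.19, 0.211) and the syntrophin Sntb1 (0.34, 0.24) did not pass.

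No gene passed in limma in the remaining lists. Over all genes tested, 3279 of 14953 had an unadjusted limma p under 0.05, so the small counts below are no result about the lists. Of the 6 relatives of the CCN and ANKRD targets, 1 had an unadjusted p under 0.05, Ccn5, at 5.59, 5.48 and 5.33 in PBS and 5.77, 5.75 and 5.77 in ETX (0.30, limma adjusted p = 0.0822). Ccn3 was at 6.59, 6.58 and 6.60 in PBS and at 7.40, 7.16 and 6.22 in ETX, so that ETX hearts lay on both sides of PBS; it passed without ETX replicate 10 (0.69, limma adjusted p = 0.0317). Ccn4 (0.20) and Ankrd23 (-0.20) did not pass (0.235 and 0.46); Ankrd23 was at -0.02 without ETX replicate 7. Of 8 genes tied to YAP in the heart, 1 had an unadjusted p under 0.05, Pik3cb, a kinase subunit that is a YAP target in cardiomyocytes (-0.19, limma adjusted p = 0.174). Birc5 (0.23, 0.23), Gabpa (-0.12, 0.393) and Igf1r (0.10, 0.463) did not pass. Of 11 genes of the SRF and MRTF axis and the cytoskeleton, which shares Ankrd1, Ccn1 and Ccn2 as targets, 3 had an unadjusted p under 0.05: vinculin, Vcl (-0.30, limma adjusted p = 0.0514), Rock1 (-0.34, 0.0735) and Rhoa (-0.29, 0.0735). Acta2 differed by -0.26 (0.254).

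Over the 8 lists together, 9 of 106 distinct genes outside the 10 members passed, where 3.56% of all genes did. The lists were chosen with earlier results of these data known, so this comparison is a description and no test of an excess. All 9 were lower in ETX, with Vgll3, on the higher side, just short of the threshold. With the lung-marker score as a covariate, Agrn passed (limma adjusted p = 0.0484) and the other 8 genes and Lats2 did not. When PBS replicates 3 and 9 were both left out, replicate 12 stood alone for PBS and was assumed to vary like the ETX hearts. Then 0 of them passed in limma, where 19 of all genes did; the difference was -0.64 for Agrn, -0.56 for Arhgef17, -0.43 for F3 and -0.29 for Lats2. Jun moved most of the called genes toward 0, from -0.47 to -0.27, and Dock5 went from -0.35 to -0.27.

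The genes whose values ran most like a member over the 6 hearts, by Pearson's r, were Mff, Gmds and Slc25a1 for Yap1 (0.981 to 0.983) and Luc7l, Kbtbd4 and Erg for Ankrd1 (0.990 to 0.993). They were Itgal, Capn9 and Usp19 for Ccn1 (0.983 to 0.993) and Tlr13, Nmt1 and D930016D06Rik for Ccn2 (0.984 to 0.987). These are the highest values among all genes tested, over the same 6 hearts, and are given as a description only.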

How the data were processed

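Signals were measured in 6 hearts, 1 array each. The deposited log2 values were made by the authors with Affymetrix Expression Console and RMA, per the submitters' processing notes. Versions, and whether further arrays were normalized together with them, are not stated in the labels. There is no detection call, and RMA compresses differences of dim genes. RMA quantile-normalizes arrays to one distribution. Of 35556 clusters 21789 had 1 gene symbol in GEO's platform annotation; its build is not named, so clusters get no coordinates. Clusters with several symbols or none were left out, and the brightest cluster stood for a gene. Genes with a mean under the lower quartile (3.45) were not tested.

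The comparison used limma 3.58.1 in R 4.3.3 (lmFit and eBayes, two-sided), over all 14953 genes with Benjamini-Hochberg adjustment. Intervals are limma's 95% intervals. The fit was tested on simulated data. The members and lists were chosen with earlier results of these data known. Lists are described by counts and medians. The text names all members, every called list gene, up to 4 others per list with the smallest p, and for 4 members the 3 genes with the highest Pearson correlation; exceptions are stated. Of the listed genes, 10 had no cluster of their own under that symbol and are not analysed here. The groups share no pairing. That hearts are separate animals rests on the label "biological" replicate. Alternatives were 2 filters, 2 eBayes options, array weights, 2 normalizations, the mean of clusters, 3 covariates and hearts left out; the fit without the atrial-rich hearts was added after seeing the data. Promoters are RefSeq's (GRCm38.p6). Figures used matplotlib 3.10.9 in Python 3.11.15.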

Additional observations from a re-analysis of the deposited data

How the results depend on the processing

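The 10 members kept a median log2 difference below 0 in all 19 alternatives. As reported it was -0.19; it was -0.16 with a further quantile normalization or with the lung-marker score as a covariate, -0.14 without the PBS hearts with lung transcripts, -0.11 without the hearts with high atrial transcripts (added after seeing the data), and -0.20 to -0.15 with 1 heart left out. The count of members called, 1 (Lats2), was 0 with no filter on dim genes, a further quantile normalization, the lung-marker score, the atrial-marker score or the sex as a covariate, with the lung-positive or the atrial-high hearts left out, and in all 6 fits without 1 heart (0 to 0). The 9 called genes of the related lists became 23 with the filter at the median and 20 with an eBayes trend. With trend and robust fit they numbered 19. Over all genes tested the 533 calls became 909, 870 and 957 in these settings in turn. The list calls numbered 3 with the atrial-marker score (all genes 141) or the sex (120) as a covariate and 1 with the lung-marker score (57). Without 1 heart the list calls numbered 2 to 9 (all genes 94 to 241). Members without overlap between the groups numbered 3 as reported, 6 with the lung-positive or the atrial-high hearts left out and 3 to 6 without 1 heart; with fewer hearts per group less overlap follows from the construction.

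The direction turned in 10 of 966 values of single genes. Yap1 was at 0.0114 with the lung-marker score and 0.0112 without the hearts with lung transcripts, and Ccn2 at 0.10 and 0.0715. With 1 heart left out Ccn2 ran from -0.21 to 0.0203 and Amotl2 from -0.0945 to 0.0226. Amotl2 was at 0.0038 after a further quantile normalization. Ccn1 was at 0.0227 without the hearts with lung transcripts and 0.0999 without those with high atrial transcripts, where Ccn3 was at -0.36. The cause was not tested. Over all genes 2 passed in limma without the high-atrial hearts and 19 without those with lung transcripts, against 533 as reported. No paired analysis was possible because the groups share no replicate numbers. The 3 arrays per group limit the precision, and signals near the low end give no reliable fold.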
